A study of Mus musculus with 4 samples.

Results

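The genes described here encode the subunits of the mitochondrial respiratory chain and of ATP synthase that are made from nuclear DNA. They were taken by symbol from the platform's annotation: every gene whose name starts with Ndufa, Ndufb, Ndufc, Ndufs, Ndufv (without the Ndufaf assembly factors), Uqcr, Cox4, Cox5, Cox6, Cox7, Cox8 or Atp5, together with Sdha, Sdhb, Sdhc, Sdhd and Cyc1. This gave 82 of the 22180 genes measured by a probe set with a single gene symbol: 34 of complex I, 4 of complex II, 9 of complex III, 17 of complex IV and 18 of complex V, the ATP synthase. The 9 genes with more than 1 probe set were represented by the probe set with the highest mean over the arrays. The symbols Cox6c, Ndufb2, Ndufb4, Ndufb4b, Ndufb4c, Ndufs5-ps, Ndufs6, Ndufs6b and Uqcr10 occurred only on probe sets that carry several symbols, so they were left out.

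Expression was measured in hindlimb tendons of untreated wild-type C57Bl/6 mice, an inbred laboratory strain, at an age of 4 months, with 2 arrays from males and 2 from females. Achilles and plantaris tendons of an animal were pooled and homogenized whole, so the RNA is that of all cells present, although the labels give the cell type as tenocytes, the fibroblasts of tendon. The labels give 3 RNA wells for each sample without saying whether they were pooled, and they do not state that the arrays of a sex came from separate animals, so p-values rest on a spread between arrays that may be technical. The arrays are called male 1, male 2, female 1 and female 2, and values of a gene on the 4 arrays are given in that order throughout. All values are log2 expression values. A probe set's level depends on its probes as well as on its RNA, so levels are not ranked between genes.

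The respiratory chain passes electrons from NADH (complex I) and succinate (complex II) through ubiquinone to complex III, then by cytochrome c to complex IV, which reduces oxygen. Complexes I, III and IV pump protons across the inner mitochondrial membrane, and complex V uses their return to make ATP. Skeletal muscle is rich in these complexes and uses its own isoforms of several complex IV subunits, while tendon cells are sparse and are known for a low oxygen consumption.

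Markers showed muscle RNA on every array. The 36 skeletal muscle genes of 3 lists (fast fibre, slow fibre and all fibres) all lay above the array medians of 2.44 to 2.47, with a median level of 9.11, 9.28, 9.67 and 9.10. Tendon markers, 13 of 14 above the array medians, had a median level of 6.27, 6.14, 5.61 and 6.35. Heart markers had a median level of 2.62, near the array medians, with 6 of 11 above them. Those of brown fat had a median level of 2.38, with 2 of 7 above. Among these the uncoupling protein gene Ucp1 was at 2.13, 1.93, 1.85 and 1.90. Those of liver had a median level of 2.18, with 1 of 8 above. In bulk tissue, fewer cells of a type and less RNA per cell cannot be told apart, and the part of muscle fibres in the values below was not tested beyond the side by side values given.

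Of the 82 genes, 76 had both sex means above every array's median and 6 had both below. The 6 were the pseudogenes Uqcrh-ps1 and Atp5c1-ps, Cox7b2 and Cox8c, which are known as testis isoforms, and the ATP synthase genes Atp5g1 and Atp5j2. Their signal was not told from background, and they are kept in the counts but not read for a direction.

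The pattern that most subunit genes shared was between the 2 female arrays, not between the sexes. Female 1 gave the highest value for 67 of the 82 genes, and female 2 lay below female 1 for 72 of them, by a median of -0.48. Male 2 lay below male 1 for 44 of the 82 genes, and gaps in both directions left a median of -0.02 (male 2 minus male 1). Among the 76 genes above the array medians, 65 were highest on female 1 and 70 were lower on female 2 than on female 1, beside 28.8% and 52.2% of the 10278 genes of the whole table at such levels. The median deviation of the 82 genes from their own mean over the arrays was -0.07, -0.05, 0.27 and -0.17. The gap between the female arrays was wider than the difference between the sex means for 72 of the 82 genes (87.8%), and for 60.2% of all genes. The gap between the male arrays was wider than that difference for 44 of the 82 genes, and for 13448 of all 22180 genes.

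Scaling bore on this gap. Female 2 lay below female 1 for 72 of the 82 genes also after centring on the array medians (median -0.49) and after quantile normalization once more (median -0.42). After the arrays were centred on the 36 skeletal muscle genes it did so for 28 of the 82, with a median gap of 0.09, while the median gap of all genes moved from 2.6e-05 to 0.57. Under that scaling 8 of the 82 genes were highest on female 1. This centring moves all genes of an array by the same amount. It therefore restates the deposited gaps relative to the median of the muscle genes and is no separate test. The part of muscle RNA in the gap was not tested.

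**Figure D1:**
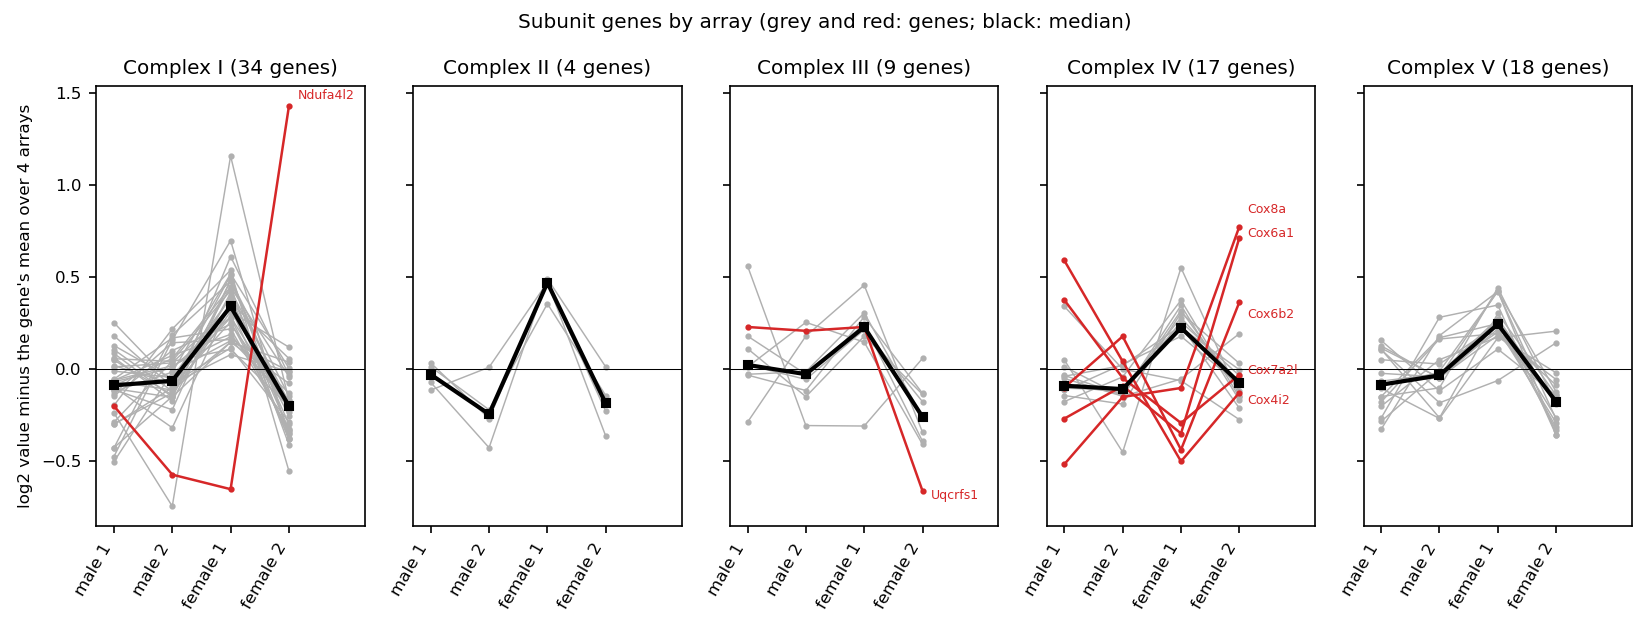
Each line is a subunit gene, drawn as its log2 value on each of the 4 arrays minus its mean over them, in 1 panel per complex; black squares are the median of the panel. The medians of all 5 panels are highest on female 1, at 0.34, 0.47, 0.23, 0.22 and 0.24 for complexes I to V, and the genes drawn in red depart from that course. Values are as deposited; with the arrays centred on the muscle lists, 8 of the 82 genes were highest on female 1.

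All 5 complexes shared this course as deposited, and complex IV showed it least. From female 1 to female 2 the median gap was -0.57 for complex I, -0.60 for complex II, -0.56 for complex III, -0.26 for complex IV and -0.48 for complex V. After centring on the muscle lists these medians were -0.001, -0.03, 0.01, 0.31 and 0.09, and 1 of 17 genes of complex IV was then lower on female 2. As deposited, female 1 was the highest array for 32 of 34 genes of complex I, 4 of 4 of complex II, 6 of 9 of complex III, 10 of 17 of complex IV and 15 of 18 of complex V. Whether the complexes differ from each other in this gap was not tested, because the genes of a complex are not replicates.

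Between the sexes no subunit gene passed the test. Limma, with Benjamini-Hochberg adjustment across the 23521 probe sets of the table, called 0 of the 82 genes at an adjusted p under 0.05, as it called 0.0% of all probe sets; the lowest adjusted p of a subunit gene was 0.969. At an unadjusted p under 0.05 there were also 0 of the 82, beside 4.49% of all probe sets. The male and female arrays did not overlap for 17 of the 82 genes (20.7%), 15 of them higher in females and 2 lower, while 33.3% of all genes had sexes that did not overlap. The median difference, female minus male, was 0.10 over the 82 genes, where all genes had a median of -0.007, and the differences ran from -0.63 to 0.99. With a median SE of 0.24, the number of arrays limits what such a comparison can show. Over all 22180 genes the differences ran from -3.04 to 5.47, and 0 of them were called either. The lack of calls among the subunit genes therefore does not show that the sexes are alike.

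The count of directions depended on single arrays and on the scaling. Of the 82 genes 59 were higher in females and 23 lower as deposited, 64 and 18 after centring on the array medians, 56 and 26 after quantile normalization once more, but 27 and 55 after centring the arrays on the skeletal muscle lists, which moved the median of all probe sets to -0.19 and that of the subunit genes to -0.09. Without female 1 the median of the subunit genes was -0.11, with 26 higher and 56 lower in females. Without female 2 it was 0.32, with 74 higher and 8 lower. By complex, the medians as deposited were 0.08, 0.22, 0.03, 0.20 and 0.09 for complexes I to V. They became -0.17, -0.08, -0.24, 0.03 and -0.15 without female 1, and 0.40, 0.56, 0.20, 0.24 and 0.25 without female 2. The spread between arrays of a sex (pooled SD of the array medians) was 0.27, 0.35, 0.25, 0.15 and 0.21, so only the median of complex IV exceeded it.

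**Figure D2:**
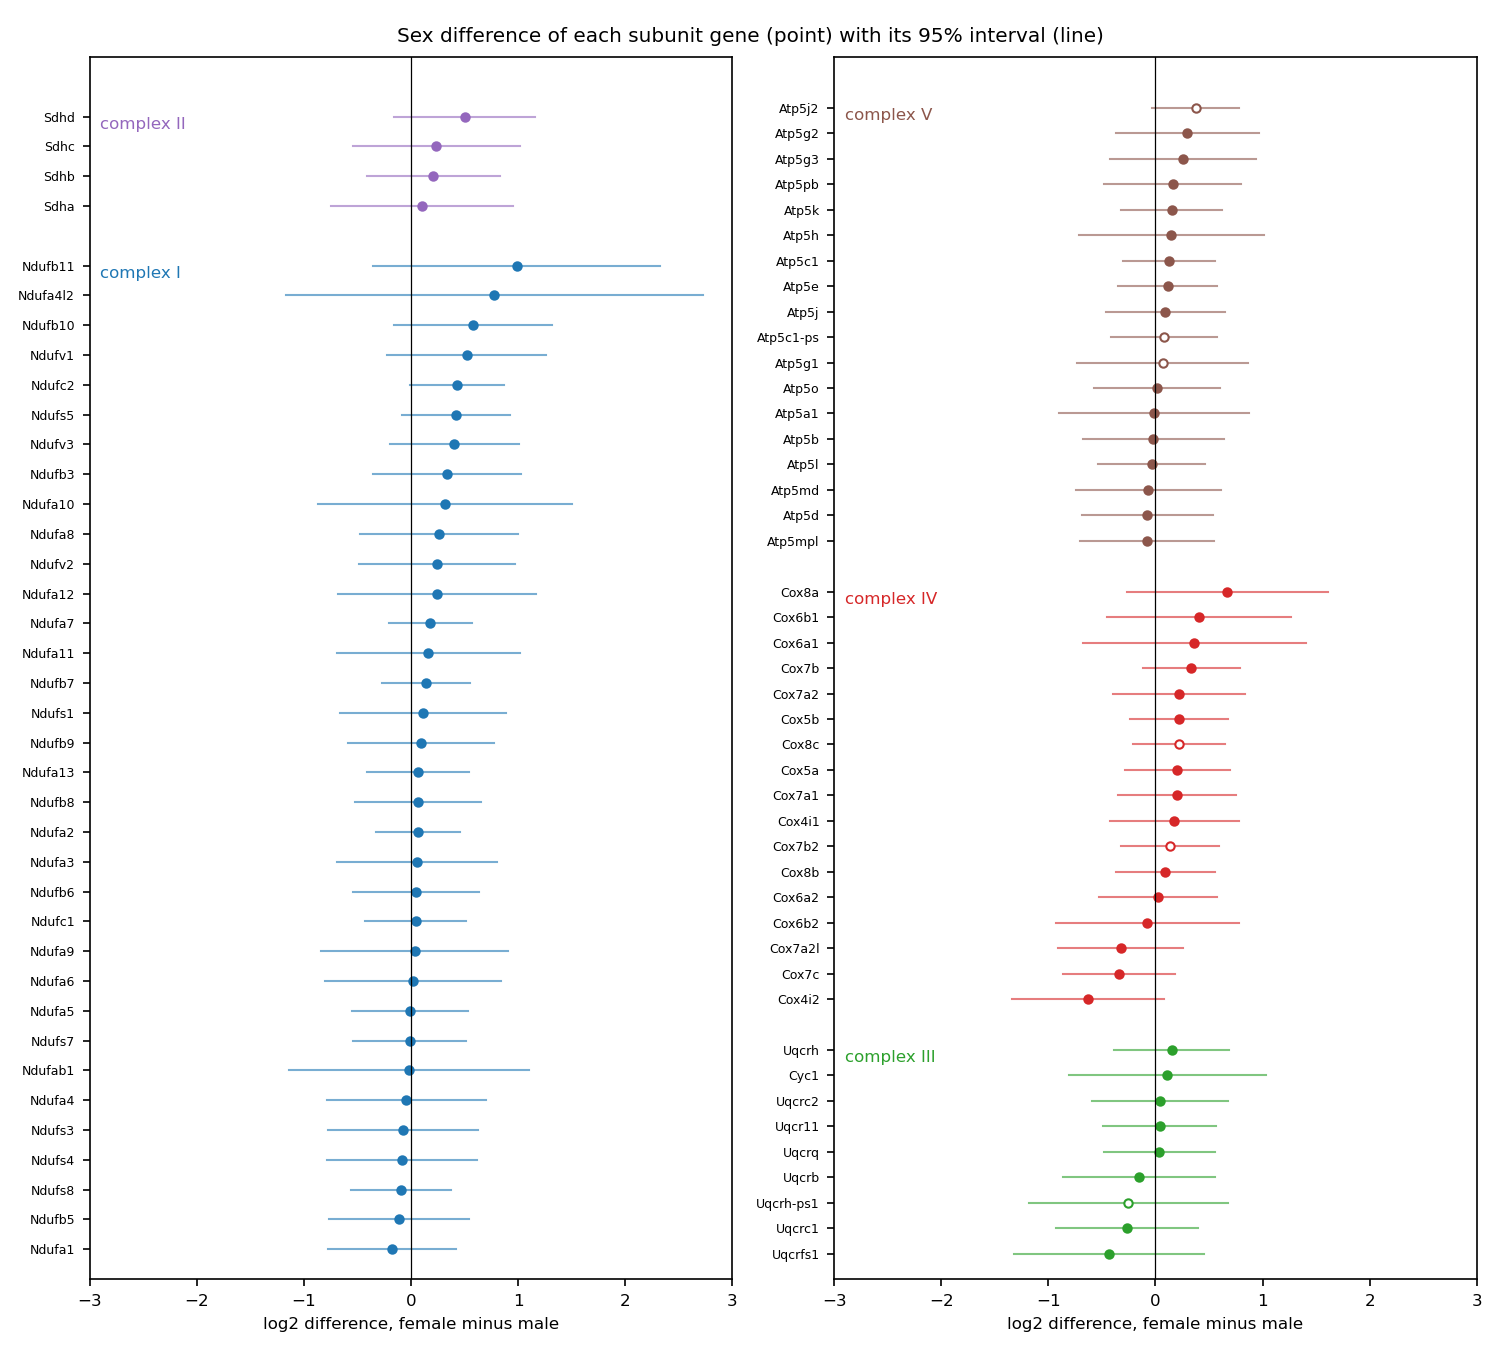
Points are the log2 differences, female minus male, of the 82 subunit genes from the limma fit of 2 against 2 arrays, grouped by complex, and lines are their 95% intervals; open points mark the 6 genes with both means below the array medians. Every interval crosses 0, and the widest belongs to Ndufa4l2.

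Complex I takes electrons from NADH through a flavin and a chain of iron-sulfur clusters in its peripheral arm. Ndufv1, the subunit that binds NADH and the flavin, was at 5.91, 6.39, 6.93 and 6.41. Its female values lay above its male values, by 0.02 at the nearest arrays, and the sex means were 6.15 ± 0.35 and 6.67 ± 0.36 (SD, n = 2 each). The difference was 0.52 (SE 0.28, 95% interval -0.22 to 1.26). Ndufs1, the largest iron-sulfur subunit of that arm, was at 5.83, 5.59, 6.18 and 5.46, with the female arrays as its highest and lowest. Ndufs8, a further iron-sulfur subunit, was at 6.46, 6.44, 6.51 and 6.20, so that female 2 alone lay apart.

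Accessory subunits of the membrane arm gave the widest sex difference of the set. Ndufb11, on the X chromosome, was at 3.95, 3.44, 5.35 and 4.02. Female 1 stood above the other arrays, female 2 lay only 0.07 above male 1, and the difference was 0.99 (SE 0.50, 95% interval -0.35 to 2.33). Ndufb10 was at 6.79, 7.07, 7.83 and 7.19, a difference of 0.58 (SE 0.27), again with no overlap of the sexes. Ndufa10 was at 6.65, 7.29, 7.83 and 6.75, and here the arrays of each sex differed among themselves by more than the sexes did. On the lower side, Ndufb5 was at 6.94, 7.17, 7.22 and 6.67, and Ndufa1, also X-linked, was at 8.83, 8.50, 8.69 and 8.29. Both had overlapping sexes and female 2 as the lowest array. Ndufc2, picked after its values were seen because its unadjusted p of 0.053 was the lowest of the set, was at 7.93, 8.10, 8.54 and 8.35, a difference of 0.43 (SE 0.16).

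Ndufa4 and Ndufa4l2 were counted with complex I by name, although the product of Ndufa4 is now placed in complex IV. Ndufa4 was at 9.80, 9.82, 10.12 and 9.41 and followed the common course. Ndufa4l2, a related gene known to be induced by low oxygen, was at 5.79, 5.41, 5.33 and 7.42. It was the only gene of complex I higher on female 2 than on female 1, by 2.09, and its range over the arrays was the widest of the 82. The sexes overlapped, its sex difference of 0.78 had an SE of 0.73, and without female 2 the difference was -0.27.

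In complex II, which also works in the citric acid cycle, all 4 subunits were highest on female 1. Sdha, the flavoprotein that oxidises succinate, was at 7.54, 7.66, 8.12 and 7.28. Sdhb, the iron-sulfur subunit, was at 6.78, 6.55, 7.12 and 6.62. Of the membrane anchors, Sdhc was at 6.22, 5.91, 6.65 and 5.95, and Sdhd at 5.84, 5.48, 6.40 and 5.92. For Sdhd alone the sexes did not overlap, with 0.08 between the nearest arrays, and the difference was 0.50 (SE 0.24). All 4 differences were above 0 as deposited, from 0.11 to 0.50, but 3 of 4 were after centring on the muscle lists and 1 of 4 without female 1, and none passed the test.

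Complex III hands electrons from ubiquinol to cytochrome c. Its Rieske iron-sulfur protein, Uqcrfs1, was at 5.72, 5.70, 5.72 and 4.83. The 3 other arrays lay between 5.70 and 5.72 and female 2 stood below them, and the difference of -0.44 (SE 0.33) came to 0.01 without female 2. Cyc1, which encodes cytochrome c1, was at 6.97, 7.44, 7.71 and 6.91. The core subunits Uqcrc1 and Uqcrc2 were at 7.69, 7.94, 7.83 and 7.27, and at 7.24, 7.25, 7.57 and 7.005. Both were lowest on female 2, but Uqcrc1 was highest on male 2. Uqcrh, the hinge protein, was at 7.40, 7.32, 7.72 and 7.30, and Uqcrb, a small subunit, at 9.18, 8.98, 9.25 and 8.61. For none of the 9 genes were the sexes apart.

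Complex IV held several members that departed from the common course. Cox4i1 and Cox5a, nuclear subunits that bind the catalytic core early in assembly, followed it, at 9.26, 9.16, 9.65 and 9.13, and at 9.35, 9.34, 9.72 and 9.37. Cox6b1, on the intermembrane side of the complex, was at 8.17, 7.67, 8.68 and 7.98, a difference of 0.40 (SE 0.32). Cox7b, the third X-linked gene, was at 9.74, 9.69, 10.19 and 9.91, with no overlap of the sexes and a difference of 0.34 (SE 0.17). Cox7c was at 3.84, 3.49, 3.43 and 3.22, lower on both female arrays, by 0.34 with an SE of 0.19.

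Cox4i2, Cox7a2l and Cox6b2 went other ways. Cox4i2, known as the lung isoform of subunit 4 and as responsive to oxygen, was at 4.03, 3.48, 2.94 and 3.31. The sexes did not overlap, both female arrays were the lower ones, and the difference of -0.63 (SE 0.26, 95% interval -1.34 to 0.07) was the largest on the male side. Cox7a2l, a relative of subunit 7a, was at 5.65, 5.23, 4.98 and 5.25, with overlapping sexes and a difference of -0.33 (SE 0.22). Cox6b2, known from testis, was at 2.78, 3.05, 2.44 and 3.24, close to the array medians and highest on female 2.

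The muscle and liver isoforms of subunits 6a, 7a and 8 were compared because the forms are known from different tissues. Cox6a2, Cox7a1 and Cox8b are the isoforms of heart and skeletal muscle, and Cox6a1, Cox7a2 and Cox8a those of liver and most other tissues. The start regions of these genes are shown first, and only the pairs of subunits 7a and 8 have a region for each isoform. The part of these regions in the values by array was not tested. The sequences are RefSeq's, assembly GRCm38.p6, 5′ to 3′ from 250 bases before the annotated start site to 30 after it. Capitals mark matches on either strand to CGCATGCG (core of the site of NRF-1) and CCGGAAG (core of the ETS site bound by GABP), both known from genes of the respiratory chain, to TATAAA (the TATA box) and to CAGCTG (an E-box known from muscle genes). No match overlaps another. RefSeq's table as used here holds none for Cox6a2.
Cox8b, chr7:140900417-140900696, minus strand: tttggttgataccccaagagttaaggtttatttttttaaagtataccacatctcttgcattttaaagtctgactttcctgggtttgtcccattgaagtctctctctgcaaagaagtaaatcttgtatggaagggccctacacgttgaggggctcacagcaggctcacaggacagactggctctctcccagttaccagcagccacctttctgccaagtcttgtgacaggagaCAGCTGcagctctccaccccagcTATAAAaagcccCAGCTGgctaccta
Cox8a, chr19:7217587-7217866, minus strand: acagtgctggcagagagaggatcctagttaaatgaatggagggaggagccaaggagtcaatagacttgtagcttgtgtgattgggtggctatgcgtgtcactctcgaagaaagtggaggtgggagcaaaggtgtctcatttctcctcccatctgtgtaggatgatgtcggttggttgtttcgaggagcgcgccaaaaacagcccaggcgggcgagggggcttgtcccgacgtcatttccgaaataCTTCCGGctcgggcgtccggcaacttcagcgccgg
Cox6a1, chr5:115348929-115349208, minus strand: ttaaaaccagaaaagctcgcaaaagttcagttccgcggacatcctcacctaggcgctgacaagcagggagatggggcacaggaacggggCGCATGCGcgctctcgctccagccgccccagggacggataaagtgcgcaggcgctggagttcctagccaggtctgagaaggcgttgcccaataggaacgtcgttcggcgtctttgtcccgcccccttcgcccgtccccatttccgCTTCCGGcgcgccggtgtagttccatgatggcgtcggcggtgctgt
Cox7a1, chr7:30183921-30184200, plus strand: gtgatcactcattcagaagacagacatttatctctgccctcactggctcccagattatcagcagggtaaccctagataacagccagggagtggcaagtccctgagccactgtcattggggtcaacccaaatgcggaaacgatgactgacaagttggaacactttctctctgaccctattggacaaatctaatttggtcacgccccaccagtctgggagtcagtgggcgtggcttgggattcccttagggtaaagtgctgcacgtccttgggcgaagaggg
Cox7a2, chr9:79759824-79760103, minus strand: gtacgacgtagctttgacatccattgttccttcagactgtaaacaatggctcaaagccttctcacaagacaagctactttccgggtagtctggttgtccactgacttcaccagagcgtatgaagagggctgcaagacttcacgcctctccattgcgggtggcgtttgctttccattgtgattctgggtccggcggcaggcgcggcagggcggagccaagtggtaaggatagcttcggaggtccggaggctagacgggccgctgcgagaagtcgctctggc
A match here is a run of letters, not a bound site.

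The muscle isoform Cox8b had TATAAA and a pair of CAGCTG boxes around its annotated start, and 2 CpG dinucleotides in its 300 bases. The liver isoforms Cox8a and Cox6a1 had ETS cores, and 19 and 32 CpG. The core of Cox8a spanned the annotated start, and that of Cox6a1 lay just before it. Cox6a1 also had the NRF-1 core, from base 90 of the printed sequence. Neither Cox7a1 nor Cox7a2 held any of these motifs, and they had 7 and 20 CpG. Over the 70 start regions of 300 bases found for 65 of the subunit genes, the NRF-1 core was in 9 (12.9%), beside 2.56% of 20520 regions of all tested genes. The ETS core was in 17 (24.3%, beside 11.4%), the YY1 motif AAGATGGCG in 6 (8.57%, beside 1.86%) and the ERR half-site AAGGTCA in 6 (8.57%, beside 4.06%). TATAAA was in 9 (12.9%, beside 12.3%) and CAGCTG in 6 (8.57%, beside 16.2%). The subunit genes' regions had a median of 19 CpG, and all regions a median of 13, and the part of base composition in these shares was not tested.

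The 3 muscle isoforms all followed the common course, in narrow ranges. Cox6a2 (probe set 17496857) was at 10.42, 10.48, 10.69 and 10.24, with 10.45 ± 0.04 in males and 10.47 ± 0.32 in females (SD, n = 2 each). Cox8b (probe set 17497704) was at 10.37, 10.51, 10.66 and 10.40, and Cox7a1 (probe set 17476288) at 9.25, 9.15, 9.62 and 9.18. For each of them female 1 was highest and the sexes overlapped. Of the liver isoforms, Cox7a2 (probe set 17529169) did the same, at 8.53, 8.66, 9.08 and 8.55. Cox6a1 (probe set 17451726) was at 8.39, 8.57, 8.31 and 9.38, and Cox8a (probe set 17362274) at 6.64, 7.01, 7.06 and 7.94. Both had female 2 as the highest array, above female 1 by 1.07 and 0.88, where the muscle partners Cox6a2 and Cox8b lay 0.45 and 0.26 below female 1.

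**Figure D3:**
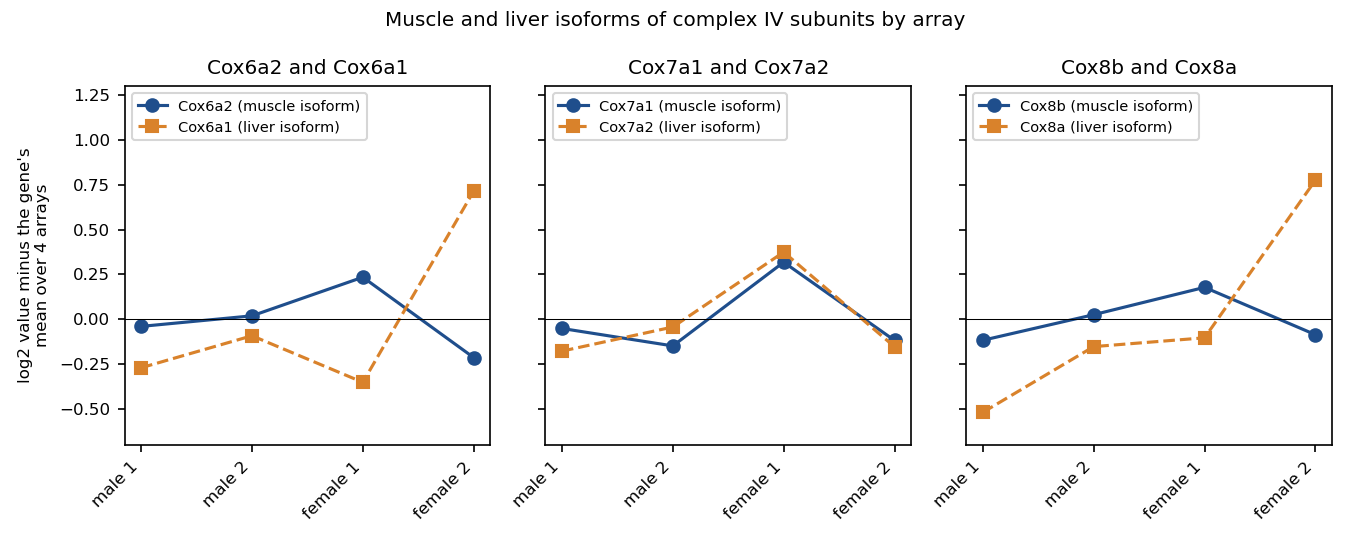
Log2 values of the muscle isoform (circles) and the liver isoform (squares) of complex IV subunits 6a, 7a and 8 on each array, minus the gene's mean over the 4 arrays. Cox6a1 and Cox8a are high on female 2 while their muscle partners are below their means there, and Cox7a1 and Cox7a2 move together.

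The balance of a pair was taken as the log2 value of the muscle isoform minus that of the liver isoform, which can be compared between arrays but not between pairs. For Cox6a2 minus Cox6a1 it was 2.02, 1.90, 2.38 and 0.87, and for Cox8b minus Cox8a it was 3.73, 3.50, 3.61 and 2.46. In these pairs female 2 differed from the mean of the 3 other arrays by -1.24 and -1.15. For Cox7a1 minus Cox7a2 the balance was 0.72, 0.49, 0.54 and 0.63, and female 2 lay 0.05 from the others. Between the sexes the balances differed by -0.34, -0.58 and -0.02 for subunits 6a, 8 and 7a. Exact two-sided permutation tests over the arrays gave p = 1, 0.667 and 1, each 1 after adjustment over the 3 pairs, in a design whose smallest possible p is 0.333. Without female 2 the difference for subunit 6a was 0.42 and that for subunit 8 was -0.01.

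Other isoform pairs were followed from array to array in the same way. Atp5g2 and Atp5g3 encode the same mature c subunit of ATP synthase, and their balance, 0.42, 0.64, 0.53 and 0.61, changed little between arrays. Cox4i2 minus Cox4i1 was -5.23, -5.68, -6.71 and -5.82, lowest on female 1. Ndufa4l2 minus Ndufa4 was -4.01, -4.41, -4.79 and -1.99, so that female 2 lay 2.41 above the mean of the other arrays.

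Complex V makes ATP on its alpha and beta subunits. Atp5a1 (alpha) was at 8.89, 9.44, 9.50 and 8.79, and Atp5b (beta) at 9.38, 9.71, 9.78 and 9.27. For both, male 2 and female 1 were the higher arrays, and the sex differences were -0.01 (SE 0.33) and -0.02 (SE 0.25). The c-ring genes Atp5g2, at 8.74, 9.02, 9.45 and 8.90, and Atp5g3, at 8.33, 8.38, 8.92 and 8.29, were highest on female 1. Atp5pb, of the peripheral stalk, was at 7.75, 7.38, 7.95 and 7.50. On the lower side, Atp5d of the central stalk was at 8.97, 8.79, 9.06 and 8.55. The small membrane subunits Atp5md and Atp5mpl were at 10.07, 9.90, 10.22 and 9.62, and at 9.49, 9.47, 9.68 and 9.13. Their differences lay between -0.08 and -0.07, and female 2 was their lowest array. Atp5g1, a further c-ring gene, was at 1.48, 1.46, 1.93 and 1.15, below the array medians throughout.

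Second probe sets of a gene shared the gap between the female arrays but not always the highest array. All 9 of them were lower on female 2 than on female 1, by differences between -0.89 and -0.10 as deposited. Of the 9 genes, Atp5d, Atp5e, Atp5g2, Atp5h and Ndufa8 had female 1 as the highest array on both, although the second one of Atp5h, with a mean of 1.68, lay below the array medians. The second probe set of Cox5b, at 5.71, 5.91, 5.91 and 5.81, was nearly level over the arrays. Ndufa12 had one at 7.87, 7.51, 7.63 and 7.16, with male 1 highest and a sex difference of -0.30 where the probe set used had 0.25. The second probe set of Ndufa11 was at 3.16, 4.04, 3.70 and 2.80, highest on male 2. That of Cox7b was at 4.66, 2.91, 3.55 and 2.71, a difference of -0.65 (SE 0.67) beside 0.34 for the probe set used.

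Subunits encoded by mitochondrial DNA did not follow the nuclear ones from array to array. Of these genes 10 were measured, and their median deviation was 0.01, 0.07, -0.06 and -0.02 on the 4 arrays. COX1, the catalytic subunit of complex IV, was at 10.84, 11.04, 10.82 and 10.82, and ND1, a core subunit of complex I, at 11.10, 11.06, 10.87 and 10.95. All 10 were lower in females, by a median of -0.08 and between -0.17 and -0.01, with 0 called by limma and 0 at an unadjusted p under 0.05; after quantile normalization once more 8 of 10 were lower, after centring on the array medians 9, without male 2 9 and without female 1 8. As deposited, 3 of the 10 were lower on female 2 than on female 1, beside 72 of the 82 nuclear genes; the counts were 6 of 10 after quantile normalization once more and 0 of 10 after centring on the muscle lists. Their values lay near the top of the table, whose maximum is 11.93, and whether the arrays can resolve differences there was not tested.

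Enzymes of the citric acid cycle showed the course of the nuclear subunits more widely. All 17 measured were lower on female 2 than on female 1, by a median of -0.73, and 14 were highest on female 1. After quantile normalization once more 16 of 17 were lower on female 2, and after centring on the muscle lists 13 of 17, by a median of -0.16. Idh2, an isocitrate dehydrogenase, was at 7.29, 7.83, 8.92 and 7.86, and Idh3a, a subunit of the enzyme that works in the cycle with NAD, at 5.79, 6.85, 6.80 and 4.52. The sex differences were 0.83 (SE 0.42) and -0.66 (SE 0.86), the widest of the list, and 0 of 17 passed the test. Citrate synthase, Cs, was at 6.97, 7.50, 8.14 and 7.43.

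Factors that assemble the complexes were less uniform. Of 15 complex I assembly factors 9 were higher and 6 lower in females, with a median of 0.24 and 0 called; without male 2 12 were higher. Ndufaf2 was at 5.55, 5.53, 4.91 and 4.67, lower on both female arrays by -0.76 (SE 0.16, adjusted p = 0.969 by limma), and Ndufaf6 was at 3.01, 2.84, 4.41 and 3.17, high on female 1. Of 31 assembly factors of complexes II to V, 17 were higher and 14 lower, with a median of 0.002 and 0 called; 11 were higher without male 1 or without female 1, and 10 after centring on the muscle lists, and the median was -0.02 after quantile normalization once more. Coa3, which acts on the COX1 protein, was at 2.86, 3.74, 5.57 and 4.80, a difference of 1.89 (SE 0.42, adjusted p = 0.969 by limma), and Atpaf2, an assembly factor of ATP synthase, at 2.85, 3.03, 3.63 and 3.25.

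Regulators of mitochondrial gene expression, 19 measured, had 12 higher and 7 lower in females, with a median of 0.14 and 0 called; without male 2 the median was 0.41, without male 1 0.02, and after centring on the muscle lists 9 were higher. The widest differences were those of the transcription factor gene Yy1, at 5.002, 4.59, 5.40 and 6.26 (1.04, SE 0.35), and of the coactivator gene Ppargc1b, at 3.20, 3.48, 4.16 and 3.64 (0.56, SE 0.24). Yy1 was highest on female 2 and Ppargc1b on female 1. Of 14 genes for cytochrome c, nucleotide exchange and the outer membrane pore, 6 were higher and 8 lower, with a median of -0.09 and 0 called; 3 were higher without female 1 and 9 without female 2. Slc25a3, the phosphate carrier, was at 6.56, 7.16, 7.54 and 7.05, and Slc25a5, an ADP/ATP carrier, at 6.42, 5.70, 5.42 and 6.03. The cytochrome c gene Cycs was at 8.75, 8.72, 9.08 and 8.59, with the course of the subunit genes.

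Muscle genes shared the gap between the female arrays. All 36 genes of the muscle lists were lower on female 2 than on female 1, by a median of -0.53, beside -0.48 for the 82 subunit genes. All 36 were so also after quantile normalization once more and after centring on the array medians, and 16 were once the arrays were centred on these genes themselves. The fast fibre list had a median deviation of 0.16, 0.14, 0.23 and -0.41, and the list of genes of all fibres 0.06, 0.05, 0.22 and -0.32. In the slow fibre list, whose fibres are rich in mitochondria, the medians were -0.76, 0.00, 0.55 and 0.17. All 11 slow fibre genes were higher in females under each of the 4 scalings, as deposited by a median of 0.81. Of them 4 had an unadjusted p under 0.05 by limma (beside 4.49% of all probe sets) and 0 were called. Without male 1, 10 were higher, by a median of 0.36. The other muscle lists went the other way. Of the 13 fast fibre genes 11 were lower in females under each of the 4 scalings, as deposited by a median of -0.27. Of the 12 all-fibre genes 10 were lower as deposited, by a median of -0.13. Without female 2, 7 of the 13 and 3 of the 12 were lower. By median deviation female 1 was thus the highest array of the subunit genes and of all 3 muscle lists, although of the 13 fast fibre genes 6 were highest on male 1 and 5 on female 1, but male 1, low for the slow fibre list, was not low for the subunit genes, at -0.07.

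Macrophage markers stood apart on female 2, and the adipocyte, endothelial and tendon lists also had their highest median deviation there. The macrophage list, 11 measured of 12 and all above the array medians, had median levels of 3.71, 3.70, 3.56 and 5.16, and a median deviation of 0.73 on female 2. The adipocyte list, 8 of 9 above the array medians, had median levels of 4.15, 4.96, 5.15 and 5.40, and its furthest array was male 1, lowest for 8 of the 9 genes. Endothelial markers had a median deviation of -0.37, 0.15, -0.03 and 0.27, and tendon markers of 0.22, -0.17, -0.35 and 0.23. Cox6a1, Cox8a and Ndufa4l2 were thus high on the array with the highest median deviations of the macrophage, adipocyte, endothelial and tendon lists. On that array the median deviations of the fast fibre and all-fibre lists were lowest. Without female 2 the macrophage list had a median sex difference of -0.06, beside 0.38 with it. The part of these cell types in the subunit values was not tested.

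**Figure D4:**
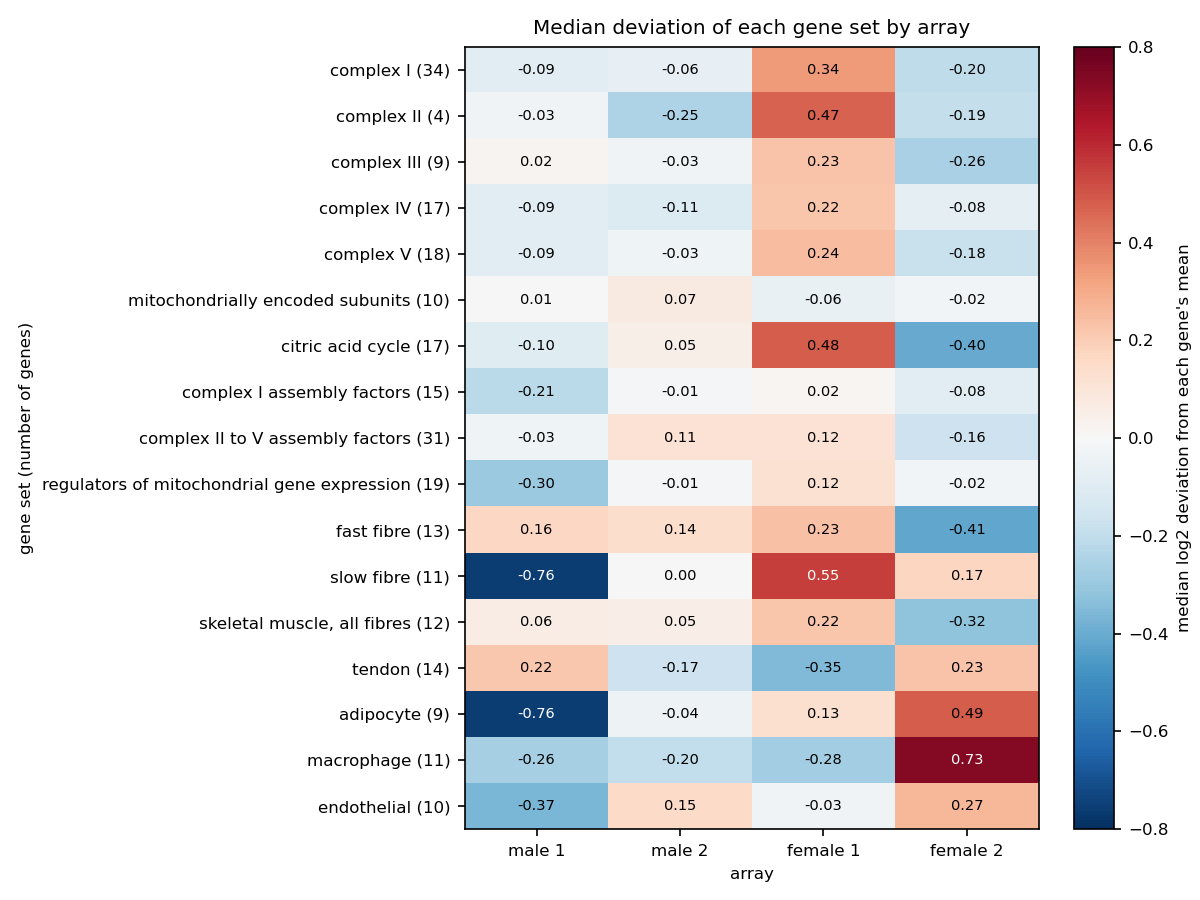
Median over each gene set, on each array, of the log2 deviation from the gene's own mean over the 4 arrays, with the number of genes in brackets; red is above and blue below the mean. The 5 complexes, the citric acid cycle and the muscle lists are highest on female 1 as deposited. The macrophage, adipocyte, endothelial and tendon lists are highest on female 2, the tendon list with male 1 close to it. Centring on the muscle lists leaves 8 of the 82 subunit genes highest on female 1.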

How the data were processed

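Expression values were deposited by the authors as log2 values, 1 column for each of the 4 arrays (Mouse Gene ST 2.1, per the labels). Oligo and RMA, which summarises the probes of a set, are named in the submitters' processing notes. Versions and the level of summary are not given in the sources used here. RMA pulls small differences of dim probe sets toward 0. No further normalization was applied.

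Of 41345 probe sets, 23521 carried 1 gene symbol, 1814 several and 16010 none in the platform's annotation. A linear model with sex as its term was fitted to the 23521 in limma 3.58.1 (R 4.3.3), with Benjamini-Hochberg adjustment over all of them and a threshold of 0.05. Simulated data were used to check that the fit returns the differences put in. Whether it calls differences as small as those of most subunit genes was not tested. Balances between isoforms were tested by exact permutation. All 82 genes matched RefSeq's gene table by Entrez ID. Python 3.11.15 and matplotlib 3.10.9 drew the figures.

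The members, the 17 gene lists and the tests were chosen with earlier results of these data known. The genes named were both members of each isoform pair, core subunits, the 3 widest differences in each direction per complex and the 4 widest ranges among genes above the array medians, and the 2 widest of each pathway list. Same-numbered arrays of the sexes were not paired in the main fit. The correlation of their deviations over the probe sets tested was -0.06, and this single value cannot show whether the numbers pair them. Alternatives were other scalings, filters and priors, the mean over probe sets, a block, and leaving out each array.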

Additional observations from a re-analysis of the deposited data

How the results depend on the processing

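No subunit gene was called under any of the settings run, but 18 of 246 recomputed values changed sign: 10 medians over subunit genes, 5 isoform balances and 3 single genes. The 246 include counts of calls, and differences that a block, array weights or another prior cannot alter. They also include isoform balances that centring the arrays cannot alter. Such values could not change sign, so 18 of 246 does not measure how stable the directions are. Centring on the skeletal muscle lists called 68 of all probe sets, 23 higher and 45 lower in females, but no subunit gene; it put the median difference at -0.09 over all subunit genes and at -0.11, -0.15, 0.013 and -0.10 for complexes I, III, IV and V. Leaving out each array in turn, the median difference ran from -0.11 to 0.32 for all subunit genes, from -0.17 to 0.40 for complex I, from -0.08 to 0.56 for complex II, from -0.24 to 0.20 for complex III, from 0.027 to 0.245 for complex IV and from -0.15 to 0.25 for complex V. The isoform balance ran from -1.10 to 0.42 for subunit 6a, from -0.137 to 0.095 for subunit 7a and from -0.74 to 0.11 for the mean of the 3 pairs, and quantile normalization once more put subunit 7a at 0.0089. Single genes ran from -0.27 to 1.82 (Ndufa4l2), from -0.88 to 0.010 (Uqcrfs1) and from -0.17 to 0.90 (Cox6a1). With the replicate number as a block, differences were as without it (median 0.10) and 3 subunit genes (3.66%), all higher in females, had an unadjusted p under 0.05, beside 4.17% of all probe sets; there were 4 without female 1 (beside 5.94%) and 6 without female 2 (beside 4.52%). With an array left out, the remaining array of that sex has no spread of its own and takes that of the other sex. The cause of these shifts was not tested. Counting Ndufa4 and Ndufa4l2 with complex IV, added after the data were seen, left both medians at 0.08 and 0.20.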
